A study of Mus musculus with 8 samples.

Results

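The genes for the proteins of the cytosolic ribosome were described in RNA-sequencing data of myeloid cells from mouse spleen. They were picked by gene symbol: Rps or Rpl followed by a number, with an optional a, x or l, together with Rpsa and the stalk genes Rplp0, Rplp1 and Rplp2. The rule found 84 of 23084 listed genes (0.364%), 33 for the small subunit and 51 for the large subunit. Rps3a2 and Rps3a3, which GENCODE M21 types as processed pseudogenes, were left out. Of the 84 genes, 6 are relatives of another member, termed paralogs (Rpl22l1, Rps27l, Rpl3l, Rpl7l1, Rpl39l and Rps4l), and the other 78 are termed core genes. The core genes include Rpl6l, a relative of Rpl6 that was not on the paralog list. GENCODE M21 types Rpl6l as a processed pseudogene and Rps4l as a transcribed processed pseudogene, and neither has a protein-coding transcript, so 77 core genes and 5 paralogs have a level per kilobase (kb) of transcript.

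The series holds 8 samples in 4 groups of 2: CD11b+Ly6C+ (monocytic) and CD11b+Ly6G+ (granulocytic) cells of wild-type (WT) mice and of mice in which Lmna, the gene for lamin A/C, was deleted (KO). All mice were C57BL/6 and 6 to 8 weeks old, and the cells were sorted from spleen. In the KO mice, floxed Lmna was removed by LysM-Cre, a Cre recombinase driven by the Lyz2 locus, which is active in monocytes, macrophages and neutrophils but need not act in every cell of a gate. The labels do not say whether mice were pooled or bore tumors.

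The deposited table compares WT with KO cells and gives each gene only 1 value that is not a fold change, an error or a p-value, namely the authors' mean of read counts divided by size factors, termed the mean signal. The lowest mean signals show what was averaged, because 1 read in 1 library adds a fixed step to the mean. All 32 distinct values under 0.3 were sums of 8 such steps to within 3e-06, so the mean runs over 8 libraries, as many as the series has samples. The 8 size factors read from the steps lie between 0.796 and 1.91, with the second highest at 1.05. The mean signal can therefore not be split by genotype, subset or sample, it has no SD and no n, and no difference between WT and KO cells was tested. The order of neighbouring genes below cannot be held against the spread between mice. Lmna itself, the targeted gene, had a mean signal of 79.5 over the 8 libraries, which does not check the genotype labels.

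The small subunit of the ribosome holds the messenger RNA and matches codons with transfer RNAs, and the large subunit joins the amino acids and houses the exit tunnel of the new chain. Nearly every ribosomal protein is present as a single copy per ribosome, the exception being the acidic stalk proteins P1 and P2, which sit on P0 as dimers. The messenger RNAs of these proteins typically begin with a C followed by a run of pyrimidines, the terminal oligopyrimidine (TOP) motif, through which mTOR signalling and the binding protein LARP1 set their translation. Monocytes and granulocytes arise from rapidly dividing precursors, which build many ribosomes.

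The start sites are shown first, since the pyrimidine run is a sequence feature that the rule did not use. RefSeq start windows (build GRCm38.p6) were found for 62 of the 84 members, 74 windows in all because some genes have more than 1 start. The 50 bases shown run from 25 before to 25 after the annotated start, on the strand of the gene, and the capitals mark the longest run of C and T in each window, or both where 2 runs are equally long. The first 5 are core genes with high or low levels or a place in the stalk, shown as examples with a long run.

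Rps9, chr7:3704016-3704065, plus strand: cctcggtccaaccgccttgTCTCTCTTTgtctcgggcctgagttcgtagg
Rpl13a, chr7:45128721-45128770, minus strand: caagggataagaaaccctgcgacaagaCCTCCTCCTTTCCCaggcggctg
Rplp2, chr7:141447626-141447675, plus strand: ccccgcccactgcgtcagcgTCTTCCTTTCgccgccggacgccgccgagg
Rpl35, chr2:39005107-39005156, minus strand: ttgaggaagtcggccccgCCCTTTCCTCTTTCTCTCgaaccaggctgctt
Rps27, chr3:90213624-90213673, minus strand: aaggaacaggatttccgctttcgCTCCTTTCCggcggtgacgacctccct

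The capitals cover 9 bases in Rps9 and Rps27, 10 in Rplp2, 14 in Rpl13a and 18 in Rpl35. Each of the 5 runs starts between 7 bases before and 2 bases after the annotated start.

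Other core genes of the same kinds lack a long run, as the windows of Rpl10, Rplp0, Rpl24 and Rps13 show.

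Rpl10, chrX:74270791-74270840, plus strand: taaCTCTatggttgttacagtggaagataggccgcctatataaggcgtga
Rplp0, chr5:115559442-115559491, plus strand: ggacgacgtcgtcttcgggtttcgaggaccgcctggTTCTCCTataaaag
Rpl24, chr16:55966250-55966299, plus strand: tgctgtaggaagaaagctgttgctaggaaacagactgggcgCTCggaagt
Rps13, chr7:116334166-116334215, minus strand: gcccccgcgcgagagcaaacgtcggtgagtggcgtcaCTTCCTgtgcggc

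The longest run is 4 bases in Rpl10, 7 in Rplp0, 3 in Rpl24 and 6 in Rps13, and those of Rplp0, Rpl24 and Rps13 begin 11 to 16 bases after the annotated start.

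The next windows show Rps27l, the paralog of Rps27, then Rpl22, the core gene with the lowest level, with its paralog Rpl22l1, and last Rpl7l1.

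Rps27l, chr9:66946061-66946110, plus strand: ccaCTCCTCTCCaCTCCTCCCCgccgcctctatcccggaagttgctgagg
Rpl22, chr4:152325701-152325750, plus strand: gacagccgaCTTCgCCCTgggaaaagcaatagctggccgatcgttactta
Rpl22l1, chr3:28805483-28805532, plus strand: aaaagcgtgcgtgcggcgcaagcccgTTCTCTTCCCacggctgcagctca
Rpl7l1, chr17:46782632-46782681, minus strand: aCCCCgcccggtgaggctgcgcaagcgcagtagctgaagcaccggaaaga

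In Rpl22 and Rpl7l1 the longest run is 4 bases, whereas in Rpl22l1 it is 10 bases and begins 1 base after the start. Rps27l has 2 runs of 9 bases, which begin 22 and 12 bases before the start. Rpl22 and Rps27l each have another annotated start, where the longest run is 5 bases.

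Over all windows, a run of at least 8 pyrimidines was present in 31 of 67 core windows (46.3%), against 19.4% of 15003 windows of the other listed protein-coding genes and 19.7% of all 32851 RefSeq windows. A C followed by 4 pyrimidines exactly at the annotated start was present in 13 of 67 core windows (19.4%), against 2.23% of the other listed coding genes. None of the 7 paralog windows had that exact start, and 3 of the 7 had a run. RefSeq starts can be off by some bases, which bears on the exact start more than on the run.

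In the 300 bases from 250 before to 50 after the start, 3 further motifs were searched on both strands. The letters CCGGAAG, the core bound by ETS factors such as GABPA, were in 25 of 67 core windows (37.3%), against 14.7% of the other listed coding genes and 8.86% of all windows. The letters AAGATGG, the core of the YY1 motif, were in 11 core windows (16.4%) against 6.55% of the other listed coding genes, and their first 3 letters can overlap the last 3 of CCGGAAG. The TATA motif TATAAA was in 6 core windows (8.96%), against 8.11% of the other listed coding genes. A match is a string of letters and not a bound site.

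Levels were compared by the run, the exact start and CCGGAAG. The 30 core genes with a run in any window had a median of 14925 mean signal per kb of coding length, and the 27 with no run in any window had a median of 15853. The 13 core genes with the exact start in a window had a median of 14442, and the 44 without had 15829. The 24 core genes with CCGGAAG had a median of 14918, and the 33 without had 15120. The ranges overlapped in all 3 cases, the order for the run turned per kb of transcript (10064 with and 9774 without), and no test was made over genes.

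Small RNA genes inside the gene bodies were also counted. In GENCODE M21, 30 of the 77 core genes with a length (39.0%) enclose at least 1 annotated small nucleolar or small Cajal body RNA gene on their own strand, 58 such RNA genes in all, against 1.41% of 15565 other listed protein-coding genes. Small nucleolar RNAs guide the chemical modification of ribosomal RNA and are cut out of introns of their host genes. Rpl4 holds 5 of them, Rpl13a holds 4, and Rpl17, Rpl23a, Rpl5, Rpl7a, Rps12 and Rpsa hold 3 each. The 4 in Rpl13a are Snord32a, Snord33, Snord34 and Snord35a. None of the 5 paralogs with a length encloses one. The host core genes had a median of 16154 mean signal per kb of coding length (range 8818 to 21354), and the other 47 core genes had a median of 14896 over a wider range, 5391 to 50020.

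The core genes are also short. Their median transcript is 711.5 bases, against 2121.5 for protein-coding genes, and their median coding length is 468 bases against 1359. The untranslated part after the coding sequence has a median of 58 bases in core genes and 551 in the other coding genes, while the untranslated part before it is closer, 113.5 against 147 bases. The median number of exons in the longest transcript is 5 against 8. The members lie on 19 chromosomes, with 14 on chromosome 7 (16.7% of members, against 7.81% of listed protein-coding genes) and 4 on X (4.76% against 3.22%).

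Together the 84 members made up 2.43% of the summed mean signal of all genes, 1.07% from the small subunit and 1.36% from the large subunit. The 6 paralogs held 0.422% of the members' signal. The median member had a mean signal of 7100, and the median of all listed genes was 46.8. Per kb of transcript, the median core gene had a level of 10008 against 124.8 for the median of 15647 protein-coding genes, a ratio of 80.2, and per kb of coding length the ratio was 79.0. By level per kb of transcript, 71 of 77 core genes were among the highest 500 protein-coding genes and 5 were among the highest 100.

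**Figure D1:**
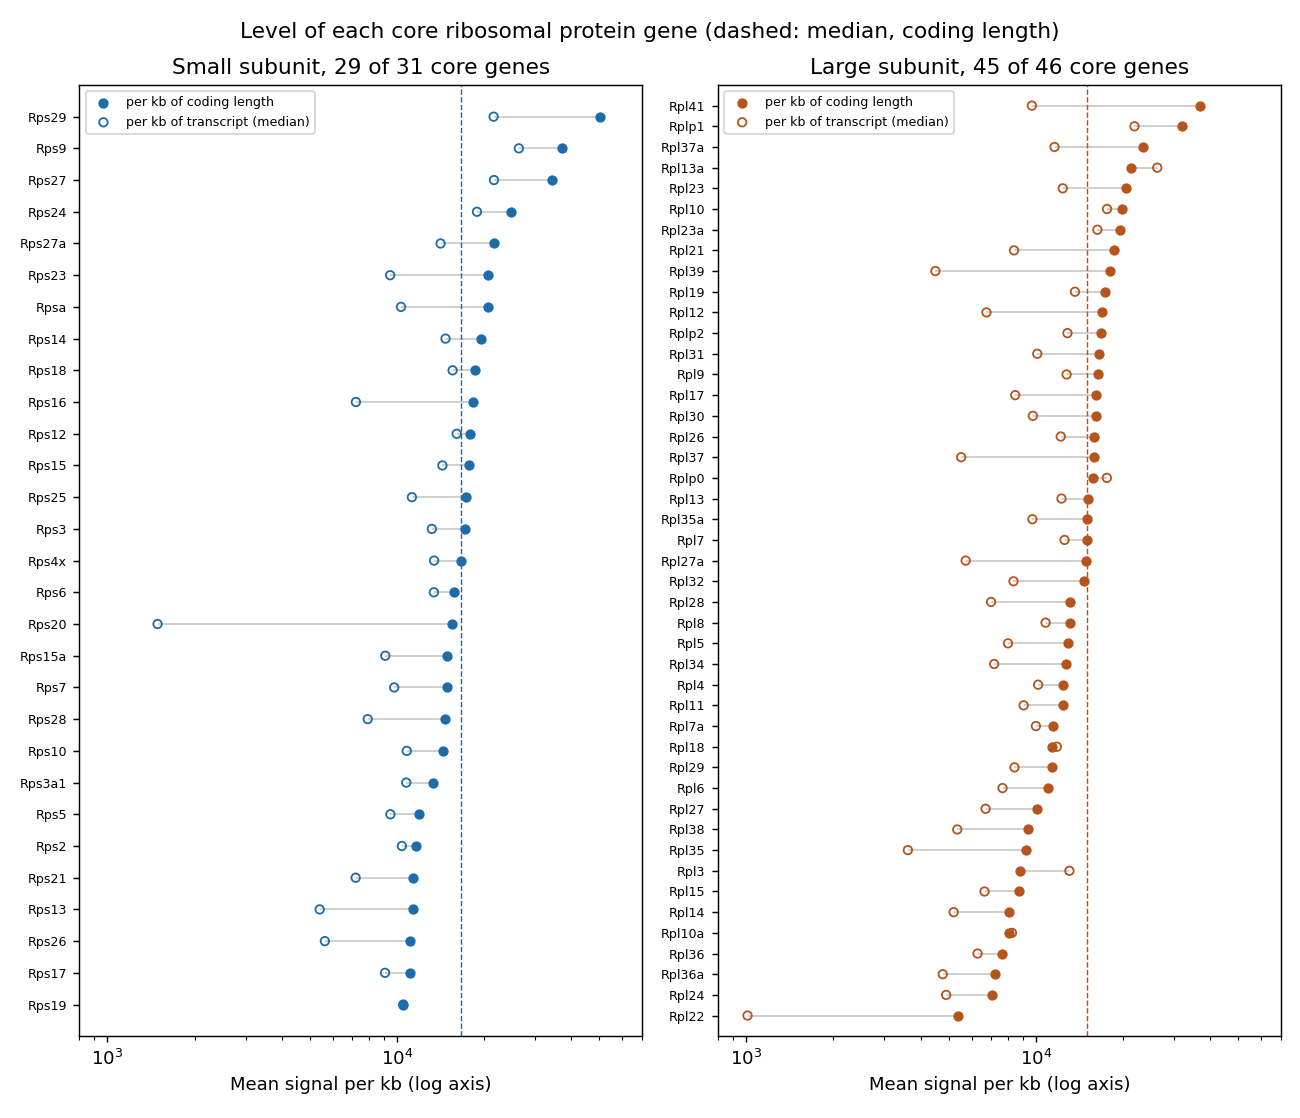
Level of each core gene with a protein-coding transcript, as mean signal per kb on a log axis, for 29 of 31 small-subunit genes (left) and 45 of 46 large-subunit genes (right). Filled points are per kb of coding length, open points are per kb of the median transcript, grey lines join the same gene, and the dashed line is the median of all the subunit's core genes per kb of coding length (16590 and 14972). Most filled points lie near the line, Rps29, Rps9 and Rps27 lie to its right, and the open points of Rps20 and Rpl22 lie far to the left of their filled points.

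The plot of each gene's level shows the spread of the set. Per kb of coding length, 69 of 77 core genes lay within 2-fold of the common median of 15120, the middle part between the quartiles ran from 11463 to 18001, and the highest gene exceeded the lowest 9.28-fold. Per kb of the median transcript, 66 of 77 lay within 2-fold of 10008, but the highest exceeded the lowest 26.1-fold. The ends of that range were Rps9 and Rpl22. The transcript scale also depends on the annotation, as the only protein-coding transcript of Rps20 in GENCODE M21 is 3706 bases long. In 5 core genes, Rpl13a among them, the median annotated transcript is shorter than the coding length. The coding scale depends on the annotation as well, since the coding length is the longest coding sequence annotated for a gene. Where that sequence is not the main one, the level is set too low. Both scales are given below, since they order the genes differently (Spearman's rho 0.67 over 77 genes, which share the same libraries and the same mean signal).

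In the small subunit, Rps9 was the leading gene. It encodes a protein at the entry of the messenger RNA channel and lies on chr7:3703993-3706897 on the plus strand. Its mean signal was 21686, rank 123 of all listed genes, which is 26334 per kb of transcript and 37261 per kb of coding length. Rps27 and Rps29, which encode small zinc-binding proteins, followed on the transcript scale with 21609 and 21547 per kb. Per kb of coding length Rps29 was the highest of all core genes at 50020, and Rps27 was at 34172. The rank of Rps29 depends on the coding length taken for Rpl41, described below. Rps24 had 18873 per kb of transcript and 24833 per kb of coding length. These 4 genes were in the highest 5 of the subunit on both scales.

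Rps3a1 was the median small-subunit gene per kb of transcript, with 10755, and had a mean signal of 10508. Per kb of coding length it had 13267, rank 24 of 31. On the transcript scale, the genes chosen for known roles lay close to or above Rps3a1. Rps6, whose protein is phosphorylated by S6 kinase downstream of mTOR, had a mean signal of 11765 and 13400 per kb of transcript. Rps27a, which is made as a fusion with ubiquitin, had 14132 per kb of transcript. Rpsa, first named as a laminin receptor, had a mean signal of 18245, the second highest of the members, but 10317 per kb of transcript. Per kb of coding length, Rps27a (21560) and Rpsa (20616) were above the subunit's median of 16590, and Rps6 (15750) was below it.

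At the low end of the small subunit, Rps26, whose protein sits at the exit of the messenger RNA channel, had 5631 per kb of transcript and 11116 per kb of coding length. Rps13 had 5404 and 11369, and Rps21 had 7193 and 11382, and these 3 were in the lowest 5 on both scales. Rps16 and Rps20 were low only on the transcript scale, Rps16 with 7206 per kb of transcript against 18246 per kb of coding length and Rps20 with 1489 against 15460. Per kb of coding length the lowest small-subunit gene was Rps19, one of the genes mutated in Diamond-Blackfan anaemia, with 10519. That rank rests on its longest annotated coding sequence, 636 bases. Its median transcript is 637 bases, with untranslated parts of 133.5 and 21 bases (medians), so a shorter coding sequence would raise its level. On that scale 28 of 31 small-subunit genes lay within 2-fold of their median.

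In the large subunit, Rpl13a led on the transcript scale with 26272 per kb. That lead rests on a median annotated transcript of 495 bases, shorter than its coding length of 609 bases. Per kb of the longest transcript Rpl13a had 12421, below Rplp1 at 21918. The Rpl13a protein is also known outside the ribosome, in the complex that silences inflammatory messenger RNAs in interferon-treated monocytes. The mean signal of Rpl13a was 13004, and its level per kb of coding length was 21354, the fourth highest of the subunit. Rpl10, whose protein joins the subunit late in its assembly, had 17626 per kb of transcript. Per kb of coding length the leading gene was Rpl41, which encodes the smallest ribosomal protein, with 36984 against 9694 per kb of transcript. Rpl41 has the shortest coding length of the core genes, 138 bases, although this is its longest annotated coding sequence. Its median transcript is 526.5 bases, with untranslated parts of 167.5 and 276 bases (medians). With a shorter coding sequence its level on that scale would be higher.

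The 3 stalk genes, whose proteins recruit the elongation factors to the ribosome, did not share a level. Rplp0, which anchors the stalk, had a mean signal of 15030, Rplp1 had 10937 and Rplp2 had 5775. Per kb of transcript they had 17599, 21918 and 12863. The value of Rplp0 rests on a median transcript of 854 bases, shorter than its coding length of 951 bases. Per kb of the longest transcript the 3 genes had 11068, 21918 and 5991. Per kb of coding length Rplp1, at 31980, was about 2-fold above Rplp0 at 15804 and Rplp2 at 16740. P1 and P2 proteins enter the stalk together, and their genes' order was the same on both scales, with Rplp1 above Rplp2.

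Rpl11, whose protein binds 5S ribosomal RNA together with that of Rpl5 and can bind Mdm2, was the large-subunit gene nearest the median per kb of transcript, with 9082. Per kb of coding length Rpl11 had 12373, below the subunit's median of 14972. The lowest large-subunit gene was Rpl22, on both scales. It had a mean signal of 2070, a level of 1011 per kb of transcript and 5391 per kb of coding length. Rpl22 encodes an RNA-binding protein known for its role in lymphocyte development. Rpl24, at 4904 per kb of transcript and 7048 per kb of coding length, and Rpl36a, at 4772 and 7248, were also in the lowest 5 on both scales. Rpl35 had 3616 per kb of transcript and 9271 per kb of coding length. Rpl39, whose protein lines the exit tunnel, had 4500 per kb of transcript but 18001 per kb of coding length, above the subunit's median on that scale.

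Rps4x, Rpl10, Rpl36a and Rpl39 lie on the X chromosome. Per kb of transcript Rpl10 (17626) and Rps4x (13425) were above the core median of 10008 and Rpl36a (4772) and Rpl39 (4500) were below it. On the coding scale Rpl39 moved above the common median of 15120 and only Rpl36a stayed below it, so the X-linked genes did not stand together.

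The ranges of the subunits overlapped, with the middle of the large subunit somewhat lower. The small-subunit median was 10755 per kb of transcript (quartiles 9285 and 14521) and the large-subunit median was 9388 (quartiles 6721 and 12361), a ratio of large to small of 0.873. Of 46 large-subunit genes, 17 (37.0%) lay above the small-subunit median. The range that both subunits share held 75 of 77 core genes, but its ends are set by single genes, Rps20 and Rpl13a. Per kb of coding length the medians were 16590 and 14972, a ratio of 0.902, and the ratio stayed under 1 on every length scale. Genes are not replicates, and no test was made.

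**Figure D2:**
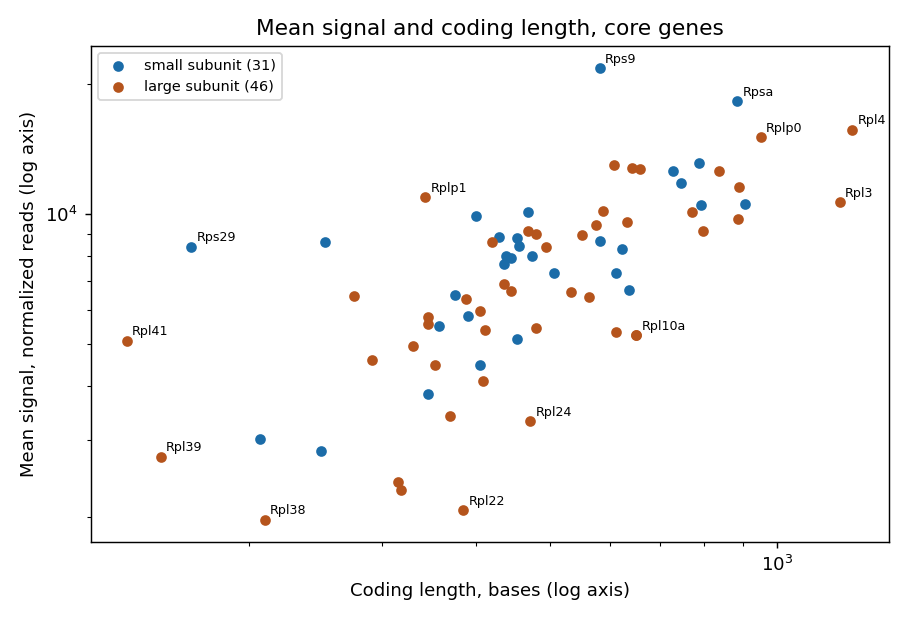
Mean signal (normalized reads, log axis) against coding length (bases, log axis) for 31 small-subunit and 46 large-subunit core genes; each point is a gene, and genes named in the text or at the edges are labelled. The points rise from lower left to upper right (Spearman's rho 0.71 over 77 genes), with Rps9, Rps29, Rplp1 and Rpl41 above the band and Rpl22, Rpl24 and Rpl38 below it.

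The mean signal itself followed the coding length, as the plot of signal against length shows. Spearman's rho was 0.71 over the 77 core genes, whose coding lengths run from 138 to 1257 bases. It was 0.39 against the median transcript length. After division by the transcript length, the level had a rho of 0.28 with the coding length and −0.27 with the transcript length. The negative rho is partly built in, because the transcript length is the divisor of the level. All these rhos are descriptions across genes that share 8 libraries.

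The paralogs stood well below their parent genes, with 1 exception that depended on the length scale. Rpl22l1, which can take the place of Rpl22 in the ribosome, had a mean signal of 715 against 2070 for Rpl22. That was 34.5% of the parent without length scaling and 36.2% per kb of coding length, but 131% per kb of the median transcript and 128% per kb of the longest transcript, since the annotated transcripts of Rpl22 have a long untranslated end (median 1649 bases). The other 4 paralogs with a length were below their parents on all 4 scales.

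Rpl7l1 had a mean signal of 1285 and was at 7.80% of Rpl7 per kb of transcript and 11.6% per kb of coding length. Rps27l, a target of p53, had a mean signal of 408 and was at 3.79% of Rps27 on both scales. Rpl3l, the form found in skeletal muscle and heart, had a mean signal of 44.1 and was at 0.327% of Rpl3 per kb of transcript. Rpl39l, best known from the testis, had a mean signal of 5.32 and was at 0.174% of Rpl39. Rps4l, the transcribed pseudogene, had a mean signal of 129, 0.987% of that of Rps4x. Rpl10l, another testis form, was on the paralog list but was not among the genes matched.

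**Figure D3:**
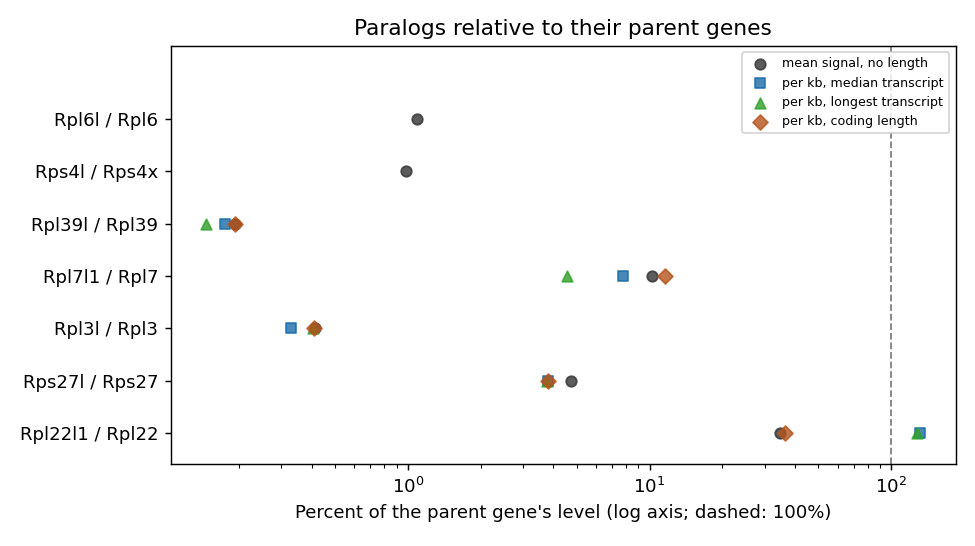
Level of each paralog, and of Rpl6l, as a percent of its parent gene on a log axis. Each row is a pair, the markers stand for the 4 length scales (only the unscaled one for Rps4l and Rpl6l), and the dashed line marks 100%. Only the Rpl22l1 row reaches the line, at 131% and 128% per kb of transcript, while its other markers lie at 34.5% and 36.2%.

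How far reads of a pair can be told apart differs by pair. The coding sequences of Rpl7l1 and Rpl7 are 59.8% identical over their alignment, those of Rpl22l1 and Rpl22 70.9%, of Rpl3l and Rpl3 74.1%, of Rps27l and Rps27 75.3% and of Rpl39l and Rpl39 85.0%. The longest identical stretch in these 5 pairs is 38 bases, in Rpl39l. Rpl6l differs, as its transcript is 98.7% identical to Rpl6 with an identical stretch of 354 bases, so its mean signal of 106, 1.09% of that of Rpl6, cannot be assigned with confidence.

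Processed copies of the members were also listed. The table lists 187 such copies, by symbol, for 54 members, and their summed signal was a median of 0.884% of the parent's. Rps3a1 was far above that, as Rps3a2 (mean signal 2796) and Rps3a3 (1699) together had 42.8% of its signal. Their transcripts are 99.5% and 98.9% identical to the coding sequence of Rps3a1, with identical stretches of 317 and 215 bases, so the level of Rps3a1 is uncertain. The copies of Rpl17 had 8.07% of its signal and those of Rps15a had 5.28%, and no other member's copies found by symbol were above 5%. Copies under an unrelated symbol were not counted, nor were Rpl6l and Rps27rt, a near copy of Rps27 treated below. These percents can therefore be too low.

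A few ribosomal proteins have gene symbols outside the rule. Fau, which makes a ubiquitin-like protein fused to a small-subunit protein, had 24512 per kb of transcript. Rack1, a scaffold protein on the small subunit, had 8118. These values lay within the range of the core genes. Rpl36al had 1894 per kb of transcript, 39.7% of Rpl36a, and 62.2% per kb of coding length. Rps27rt had 542 per kb of transcript, 2.51% of Rps27. Its coding sequence is 100% identical to that of Rps27, with an identical stretch of 341 bases. Neither its signal nor that of Rps27 can therefore be assigned with confidence.

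**Figure D4:**
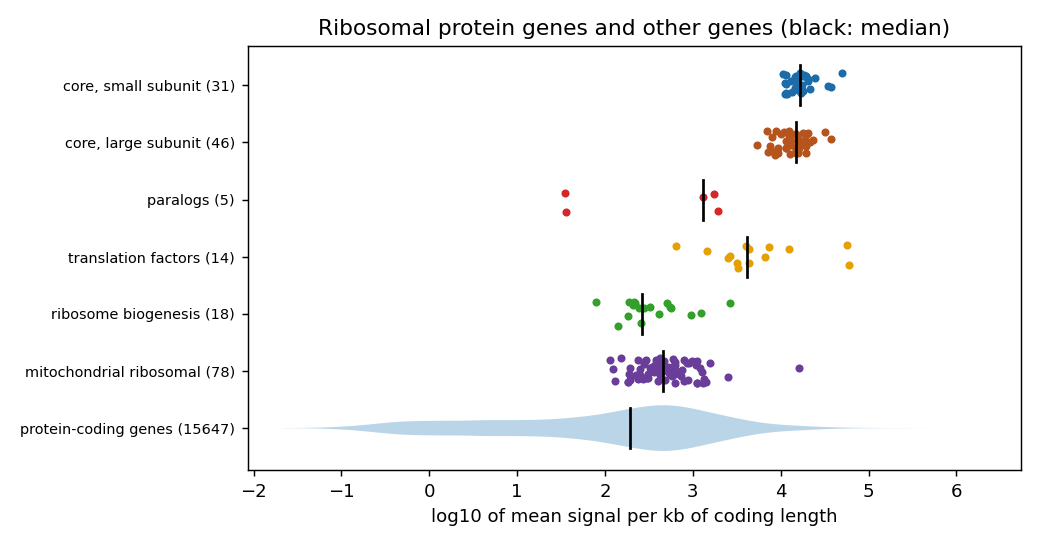
Mean signal per kb of coding length (log10) for the core genes of both subunits, the paralogs and other gene lists, with the number of genes in brackets. Each point is a gene, scattered vertically only for legibility, black bars are medians, and the bottom shape is the distribution over 15647 protein-coding genes. The core genes form a tight cloud above the medians of the other lists drawn (the common core median is 15120 per kb before the log), and Eef1a1 and Tpt1 are the 2 genes of the translation list to its right.

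Other genes of protein synthesis were read beside the members. In the list of 14 translation factors and other genes whose transcripts carry a TOP motif, the median was 2805 per kb of transcript, 3.57-fold below the core median. Eef1a1, which brings transfer RNAs to the ribosome, was the highest with 97137 and Eif3e the lowest with 1290, and 4 of the 14 were above the core median, or 2 per kb of coding length. The 18 genes of ribosome biogenesis had a median of 313 per kb of transcript, 31.9-fold below the core genes, and 56.8-fold below them per kb of coding length. They ranged per kb of transcript from Ncl, which encodes nucleolin, at 1274 to Polr1b, a subunit of RNA polymerase I, at 80.4. The 78 genes of the mitochondrial ribosome had a median of 243 per kb of transcript, 41.1-fold below the cytosolic core genes, and 32.8-fold below them per kb of coding length, so the order of these 2 lists turned with the scale (coding medians 266 and 461). None of the 78 mitochondrial ribosome genes reached the core median per kb of transcript, and 1 of them, Mrpl33, passed it per kb of coding length.

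The mean signal mixes cells of both gates. All 6 neutrophil genes of the marker list were above the core median per kb of transcript, with S100a9 and S100a8 at ranks 1 and 2 of protein-coding genes, and together they held 5.98% of the summed signal, more than all the members. Of the monocyte genes, Ly6c2 had a mean signal of 14413, Csf1r 22160, Ccr2 2504 and Cx3cr1 706. Genes listed as markers of other cell types were also present. Which cells their reads came from cannot be read from a pooled mean. The B cell genes Cd79a and Ms4a1 had mean signals of 5923 and 5085. The macrophage genes Slc40a1, Vcam1 and C1qa had 31789, 20903 and 9393. Of the erythroid genes, Hbb-bs had 8580 and Hba-a1 had 4661, but Alas2 had only 289. The T cell genes Cd3d and Cd3e had 488 and 288. What each cell type added to the signal of the ribosomal protein genes was not tested, and in a bulk sample fewer cells of a type cannot be told apart from less RNA per cell.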

How the data were processed

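RNA was sequenced from 8 samples of sorted spleen myeloid cells, grouped by the sample titles. The subset was taken from the titles because the cell marker label does not separate the subsets for every sample. Per the submitters' processing notes and the methods, the authors used cutadapt 1.14 for trimming, STAR 2.5.2b for alignment (mm10), RSEM 1.3.0 with GENCODE M12 for gene counts and DESeq2 1.20.0 for size factors and their comparison. The deposited table holds a mean signal per gene, the authors' mean of counts divided by size factors. Its other 6 columns hold the authors' comparison of WT and KO cells (fold changes, an error, a statistic and p-values) and were not used. Depth per sample is unknown from the table, and the planned genotype test was not run because there are no values per sample.

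Mean signals were divided by lengths from GENCODE M21 (23004 of 23084 identifiers matched; same genome build): the median protein-coding transcript, and as alternatives the longest transcript, the coding length or none. The coding length is the longest coding sequence annotated for a gene. No filter on low values and no pseudocount was applied. The read of steps in low values was tested on simulated data. The coding sequences were aligned with Biopython 1.88, and tables were handled with Python 3.11.15, pandas 2.3.3 and numpy 2.4.6. The genes named were the 5 highest and 5 lowest core genes per subunit, those nearest the medians, the stalk, X-linked and paralog genes, and Rpsa, Rps27a and Rps6; a few of them are not reported here. Rps19, Rpl41 and the small nucleolar RNA hosts were added once values were known. The members and lists were chosen with earlier results of these data known.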

Additional observations from a re-analysis of the deposited data

How the results depend on the processing

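The share of the summed signal held by the ribosomal protein genes was 2.43% with or without genes under a mean signal of 10, 2.51% over protein-coding genes only and 2.54% without mitochondrial genes. Chosen after seeing the data, counting Rps3a2 and Rps3a3 as members gave 2.45%. The large-to-small ratio of medians was 0.873, and 0.692 with the longest transcript, 0.902 with coding length, 0.778 without length scaling and 0.797 with the paralogs included. The highest over the lowest core gene was 26.1, and 21.7 with the longest transcript, 9.28 with coding length and 204 without scaling, where Rpl6l was the lowest. Leaving out Rpl6l, also chosen after seeing the data, gave 11.0. Among the paralogs the length scale moved Rpl22l1 most, 3.80-fold, and past its parent.

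No paired analysis was possible because only a mean over the 8 libraries was given for each gene. Fits without a replicate, a count test by another tool and another normalization were not run on that ground, and the precision of the levels is unknown.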
